A study of Mus musculus with 3 samples.

Results

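The genes examined were Kitl, Kit, Edn1, Edn3, Ednra and Ednrb, the ligand and receptor genes of the Kit and endothelin pathways that act on melanoblasts, the precursors of pigment cells. They were taken by name from the deposited single-cell table of developing mouse back skin, and all 6 were among its 19165 genes. Kit ligand, also called stem cell factor and encoded by Kitl, is made by skin cells as a membrane-bound or a soluble protein and activates the receptor tyrosine kinase Kit, which melanoblasts need for migration and survival. Endothelins are short peptides cut from larger precursors. Endothelin-3, encoded by Edn3, acts mainly on the G protein-coupled receptor encoded by Ednrb and is known for expanding melanoblast and enteric neural crest populations. Endothelin-1, encoded by Edn1, is best known as a vasoconstrictor that acts on smooth muscle through the receptor encoded by Ednra.

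The data came from wild-type C57BL/6 mice, all male, sampled at the embryonic stages E13.5 and E16.5, named by days after conception, and on the day of birth (P0), with 1 droplet library of pooled animals per stage. E13.5 and E16.5 skin was dissociated with trypsin and P0 skin with collagenase IV, so stage, library and digestion cannot be told apart. The table held 5962, 5208 and 5065 cells in that order, with 53334740, 66239195 and 46599806 unique molecular identifiers (UMIs, counted RNA molecules) and a median of 7066.5, 11021 and 6797 UMIs per cell. Between 32 and 44 cell barcodes were shared by any 2 libraries. Since each stage was 1 library, no test between stages or cell classes was possible. Levels are given as CPM, the UMIs of a gene per 1000000 UMIs, summed over a class of cells, and every interval is a 95% interval that covers counting error only. Differences are log2 ratios of CPM after adding 10 CPM, which draws small values toward 0.

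Cells were clustered in each library without the 6 genes and named from fixed marker genes other than these. A class called melanocyte-like held 35, 45 and 66 cells in stage order. Of 10 melanocyte markers such as Dct and Pmel, 8, 9 and 10 were higher there by a log2 difference of at least 1 and 2, 1 and 0 were at 0, and their summed level was 4936, 7730 and 26481 CPM against 14.8, 18.7 and 164 CPM in the other cells. Markers of Schwann cells, the glia of peripheral nerves that share the neural crest origin of melanoblasts, were also higher in this class for 4, 6 and 6 of 8 genes, summing to 490, 878 and 649 CPM against 1765, 2712 and 3382 CPM in Schwann-like cells. The part of these markers in the results was not tested. Sub-clusters with nearly as strong a score for a second class were left unnamed, among them some with melanocyte markers, while 1 Schwann-like sub-cluster at E16.5 with the melanocyte marker Dct among its leading genes kept its name. In all, 689, 88 and 216 cells had no name.

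Over whole libraries, Kitl stood at 22.1 CPM at E13.5 (20.9 to 23.4), 122 CPM at E16.5 (120 to 125) and 24.6 CPM at P0 (23.2 to 26.1), so the E16.5 library was above both others while the intervals of those 2 overlapped. Edn1 had its highest level in the P0 library, at 25.4 CPM (24.0 to 26.9) against 2.59 (2.17 to 3.06) and 6.27 (5.68 to 6.90). Edn3 was lowest at P0, with 17.7, 22.8 and 9.27 CPM in stage order. Kit stood at 9.37, 11.1 and 6.37 CPM. Ednrb went from 40.5 to 26.1 to 17.0 CPM, and Ednra was highest at E16.5 with 38.9 CPM (37.4 to 40.4). These totals depend on which cells each library held as well as on the RNA per cell, and the classes below separate those cells.

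The 6 genes lie on 6 chromosomes of the GRCm38 mouse genome in the GENCODE annotation. Kitl is at chr10:100015630-100100416 on the plus strand, Kit at chr5:75574916-75656722 on the plus strand, Edn1 at chr13:42301476-42307990 on the plus strand, Edn3 at chr2:174760619-174784042 on the plus strand, Ednra at chr8:77663031-77724464 on the minus strand and Ednrb at chr14:103814625-103844402 on the minus strand. Each is a protein-coding gene. The counts come from the 3′ ends of transcripts, so the membrane-bound and soluble forms of Kit ligand, which differ by splicing, were not told apart. The 250 bases before the annotated start of Edn3 and of Edn1 are printed here because these ligand genes were each high in few skin cell classes, given below. They are the RefSeq promoter windows of GRCm38.p6 on the plus strand, chr2:174760369-174760618 for Edn3 and chr13:42301226-42301475 for Edn1, and neither overlaps an annotated exon of its gene. Capitals mark matches to CTTTGA, the core bound by Lef1 and Tcf factors, and to CANNTG, the E-box bound by basic helix-loop-helix factors, on either strand.

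Edn3: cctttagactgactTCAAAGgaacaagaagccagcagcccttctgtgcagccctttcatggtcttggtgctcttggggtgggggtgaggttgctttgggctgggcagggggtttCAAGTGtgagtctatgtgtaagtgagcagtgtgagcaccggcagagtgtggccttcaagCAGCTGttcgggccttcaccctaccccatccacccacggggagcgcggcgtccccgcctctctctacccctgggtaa

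Edn1: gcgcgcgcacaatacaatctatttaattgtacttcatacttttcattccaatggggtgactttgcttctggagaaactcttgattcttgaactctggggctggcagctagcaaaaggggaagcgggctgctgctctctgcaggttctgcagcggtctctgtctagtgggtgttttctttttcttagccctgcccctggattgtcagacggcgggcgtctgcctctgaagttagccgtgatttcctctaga

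The Edn3 window held 1 match to CTTTGA, read as TCAAAG on the strand shown and starting 236 bases before the gene, and 2 matches to CANNTG, the nearer starting 77 bases before it. The Edn1 window held no match to either. Of 32851 windows of the same length, 13.8% held CTTTGA and 66.2% held CANNTG, so both are common and a match describes the letters only. The E-boxes with the letters CACGTG and CATGTG that Mitf binds, which are also forms of CANNTG, were in 6.02% and 12.3% of windows and in none of the 6 genes' windows.

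Kit, the receptor for Kit ligand, was measured at high level in melanocyte-like and mast-like cells and at low level elsewhere. In melanocyte-like cells it stood at 178 CPM at E13.5 (136 to 230), 329 CPM at E16.5 (280 to 385) and 206 CPM at P0 (169 to 250), from 59, 156 and 105 UMIs. The other cells of the same libraries had 8.32, 8.79 and 4.17 CPM. The log2 difference was 3.36 (3.01 to 3.72), 4.18 (3.95 to 4.40) and 3.93 (3.66 to 4.20). Mast-like cells, whose development also needs Kit, were named in the embryonic libraries only, with 212 CPM at E13.5 (173 to 258) and 465 CPM at E16.5 (399 to 538). At E13.5 the intervals of the mast-like and melanocyte-like cells overlapped, and at E16.5 the mast-like cells were higher. Endothelial-like cells came next with 33.8, 26.6 and 14.5 CPM, below the melanocyte-like interval in every library. Another site was found at E13.5, where neural-like cells had 21.5 CPM (16.6 to 27.4), and 57 of them led by Lhx1, Lhx1os and Npy had 80.6 CPM. Dermal-like cells had between 2.94 and 3.51 CPM in the 3 libraries.

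Ednrb, the receptor of endothelin-3, was measured in 3 classes. Schwann-like cells had 502 CPM at E13.5 (468 to 538), 639 CPM at E16.5 (593 to 687) and 278 CPM at P0 (233 to 327). Melanocyte-like cells had 375 CPM (312 to 447), 460 CPM (401 to 526) and 466 CPM (409 to 529). Macrophage-like cells had 251 CPM (232 to 272), 209 CPM (186 to 234) and 171 CPM (121 to 236). The order of the first 2 classes therefore changed, with Schwann-like cells above melanocyte-like cells in both embryonic libraries and below them at P0, with no overlap of intervals in any library. The P0 order rested on which cells were counted. The unnamed sub-clusters with melanocyte markers at P0, of 33 and 17 cells, had 61.6 CPM (46.9 to 79.4) and 156 CPM (106 to 221), and with them kept, an alternative chosen after seeing the data, the class stood at 196 CPM (176 to 219), below the Schwann-like interval. Both sub-clusters were mixed. The 33 cells, at a median of 27030 UMIs per cell, had epithelial markers at 9104 CPM and melanocyte markers at 4557 CPM. In the 17 cells, 7 of 8 Schwann markers were also higher. The part of this other RNA in their Ednrb levels was not tested. Taking the 125 P0 cells with a UMI of at least 3 melanocyte markers, 66 of them in the melanocyte-like class, gave 149 CPM (134 to 166). The next named class was at 23.0 CPM at E13.5, and endothelial-like cells followed with 31.6 and 24.8 CPM in the later libraries. A group of 84 cells at E13.5 led by the glial genes Fabp7 and Sox2, left unnamed, had 171 CPM (137 to 210.2). Against all other cells of its library, the melanocyte-like class was higher by a log2 difference of 2.99 (2.74 to 3.24), 3.83 (3.64 to 4.03) and 4.43 (4.24 to 4.63).

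The Schwann-like and macrophage-like classes were not uniform for Ednrb. The Schwann-like sub-clusters are each described by their leading genes against the rest of the class. At E13.5 they ran from 219 CPM (led by globin genes) to 813 CPM (Pcdh20, Ung, Chst5). At E16.5 they ran from 341 CPM in 22 cells (Dct, Pmel, Ptgds) to 1185 CPM in 15 cells (Ccer2, Lect1, Plekha4). At P0 there were 2, with 51 cells led by Fgl2, Gatm and Sostdc1 at 433 CPM (362 to 513), overlapping the melanocyte-like interval, and 37 cells led by globin genes at 35.5 CPM, so 133 of the 140 UMIs of the class at P0 came from the larger one. Among macrophage-like cells, the 5 sub-clusters at E13.5 ran from 96.8 to 442 CPM, the highest being led by Rtp4, Ddx60 and C5ar1. At E16.5 the 4 ran from 0 to 345 CPM, and the highest was led by the mast cell genes Cma1 and Tpsb2, although the mast-like class itself had 5.16 CPM. Kit in the same macrophage-like sub-clusters was at most 16.3 CPM.

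**Figure D1:**
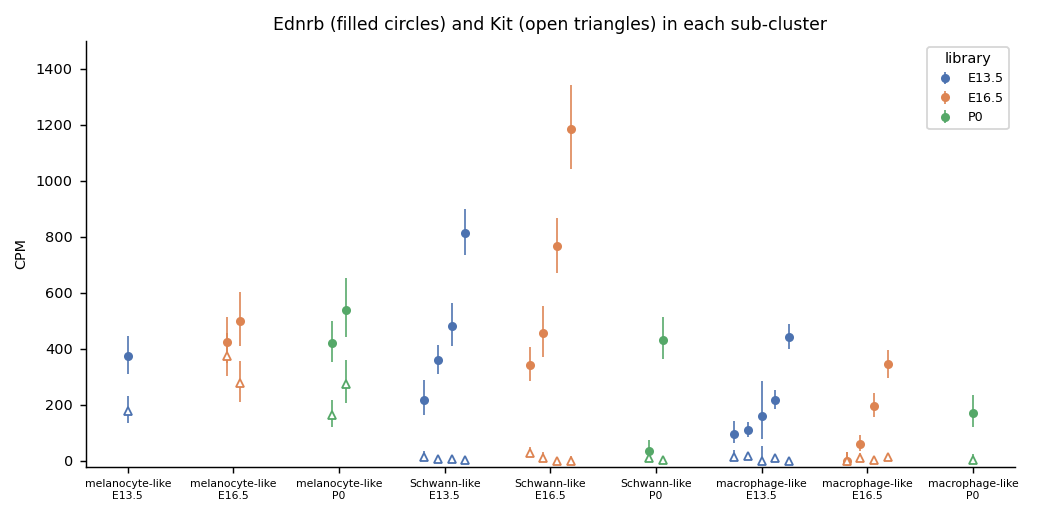
Levels of Ednrb (filled circles) and Kit (open triangles) in CPM in every sub-cluster of the melanocyte-like, Schwann-like and macrophage-like classes, by library, with 95% Poisson intervals that cover counting error. Both genes are well above 0 in the melanocyte-like sub-clusters of all 3 libraries. The other classes carry Ednrb, up to 1185 CPM in a sub-cluster of 15 cells, with little Kit.

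Single cells showed the same division. With each cell thinned to 3500 UMIs so that depth was equal, Kit was seen in 12 of 35, 34 of 45 and 36 of 66 melanocyte-like cells, or 34.3%, 75.6% and 54.5%. In dermal-like cells, which should lack Kit, the shares were 0.754%, 1.43% and 1.31% at median depths of 8516, 10630 and 6021 UMIs before thinning, against 7037, 9589 and 6548 in the melanocyte-like class. Ednrb was seen in 60.0%, 75.6% and 66.7% of melanocyte-like cells, against 1.08%, 0.342% and 0.521% of epithelial-like cells at median depths of 5856, 13835 and 9509.5 UMIs. Macrophage-like cells had Ednrb in between 32.1% and 45.0% of cells, also far above the epithelial-like share. Both receptors were seen in the same cell in 9 of 35, 25 of 45 and 23 of 66 melanocyte-like cells, or 25.7% (12.5 to 43.3), 55.6% (40.0 to 70.4) and 34.8% (23.5 to 47.6). In mast-like, Schwann-like and macrophage-like cells the share with both was at most 4.35%. At full depth the melanocyte-like shares with both were 42.9%, 82.2% and 69.7%, and 7, 0 and 3 cells had neither.

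**Figure D2:**
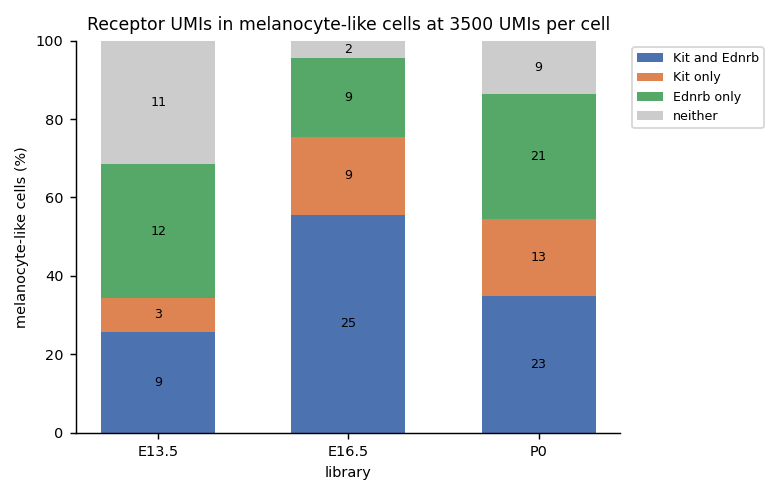
Shares of melanocyte-like cells with a UMI of Kit, of Ednrb, of both or of neither in each library, with every cell thinned to 3500 UMIs. The numbers in the bars are cells, and the share with both was 25.7%, 55.6% and 34.8% from left to right.

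Between libraries, Kit in melanocyte-like cells was higher at E16.5 than at E13.5 by a log2 difference of 0.85 (0.44 to 1.26) and lower at P0 than at E16.5, by -0.65 (-0.99 to -0.31). For Ednrb the differences were 0.29 (-0.02 to 0.60) and 0.02 (-0.24 to 0.28), and neither could be told from 0 at this depth. In these classes neither gene reached a log2 difference of 1, which 4.49% of genes exceeded upward and 7.24% downward between E13.5 and E16.5, and 3.54% and 6.58% between E16.5 and P0. With finer clusters at resolution 2 the first Kit difference was 0.14 (-0.33 to 0.62), and with the 6 genes and the pathway list allowed among the variable genes it was 1.29 (0.89 to 1.68), so that stage difference, and whether it passed 1, depended on which cells were counted. With melanocyte cells taken one by one from at least 3 markers, the differences from E16.5 to P0 were -1.53 (-1.81 to -1.25) for Kit and -1.17 (-1.40 to -0.95) for Ednrb, both past 1 downward. Those sets were unlike, since 45 of 57 cells at E16.5 but 66 of 125 at P0 were also in the melanocyte-like class. The part of the other cells in these differences was not tested. At resolution 2 the Ednrb difference from E13.5 to E16.5 was -0.60 (-0.93 to -0.26). With mixed sub-clusters kept, an alternative chosen after seeing the data, the Ednrb difference from E16.5 to P0 was -0.96 (-1.17 to -0.75). The unnamed sub-cluster of 48 cells at E13.5 that also carried melanocyte markers, led by Dct, Pmel and Cd200, had 26.3 CPM of Kit and 143 CPM of Ednrb.

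The ligand genes were near the floor in the melanocyte-like cells themselves. No Edn1 UMI was counted in any of the 3 libraries, and Edn3 had 2, 0 and 0 UMIs. Kitl had 5, 4 and 3 UMIs, or 15.1, 8.45 and 5.90 CPM, against 22.1, 123 and 24.8 CPM in the other cells. Ednra had 4, 3 and 2 UMIs, or 12.1, 6.33 and 3.93 CPM. Edn1 at E13.5 and E16.5 and Edn3 at P0 stayed under 10 CPM in both groups. Of the 5 other members in each library, 2 were therefore past a log2 difference of 1 upward in each library, Kit and Ednrb, where 2.85%, 5.05% and 6.89% of all genes were. Downward there were 0, 3 and 2, where 6.51%, 11.2% and 12.2% of all genes were, with Kitl, Edn3 and Ednra at E16.5 and Kitl and Edn1 at P0. Edn3 at E16.5 was at least 3.63-fold lower and Edn1 at P0 at least 4.36-fold lower, taking 3 counts over the class as the limit.

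A list of 31 other genes of the 2 pathways and of melanoblast control was followed in the same cells, chosen with earlier results of these data known. Of those with at least 10 CPM in either group, 4 of 27, 6 of 26 and 6 of 26 in the 3 libraries were higher in melanocyte-like cells by a log2 difference of at least 1, where 2.85%, 5.05% and 6.89% of all genes were. Downward there were 1, 5 and 3, where 6.51%, 11.2% and 12.2% of all genes were. Mitf, Pax3, Tfap2a and Mc1r were all of the upward genes at E13.5 and were among them in both later libraries. The list's median difference was -0.21, -0.26 and -0.10, against -0.00, 0.03 and 0.05 over all genes. Mitf, the transcription factor of pigment cell identity, stood at 257, 462 and 543 CPM against 3.96, 4.56 and 9.26 CPM in the other cells. Pax3, a neural crest transcription factor upstream of Mitf, was at 227, 509 and 324 CPM against 10.3, 4.11 and 4.21 CPM. Tfap2a, another neural crest factor, was higher by 2.12, 2.58 and 1.60, and Mc1r, the melanocortin receptor of pigment cells, by 1.11, 3.14 and 3.46. Plcb4, a phospholipase C isoform that acts below Gq-coupled receptors such as Ednrb, was higher by 0.90, 1.38 and 1.44. None of the 10 measured genes of Kit signal transduction exceeded 1 upward except Src at E16.5, and Lyn was below -1 there. Adamts9, a secreted protease, had differences of -0.57, -1.20 and -1.45, and Prkca, a protein kinase C, of -1.14, -0.51 and -1.18.

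Kitl was found in several skin compartments, and its dermal level differed widely between libraries. In dermal-like cells, which are fibroblasts by their collagen markers, it stood at 26.8 CPM at E13.5 (24.7 to 29.0), 175 CPM at E16.5 (170 to 180) and 14.2 CPM at P0 (12.4 to 16.2), with no overlap. Between E13.5 and P0 the log2 difference was -0.60 (-0.74 to -0.46). No difference was computed against the E16.5 dermal-like class, under a rule on leading genes. Of 35 dermal clusters, 3, all of that library, each had 1 marker of another class and no dermal marker among their leading genes. Each of the 3 still had 8 dermal markers raised. With cells thinned to 3500 UMIs, 8.05%, 37.1% and 4.18% of dermal-like cells had Kitl, against 3.56%, 10.2% and 0% of macrophage-like cells at median depths of 5905, 12798 and 7000 UMIs. The last share, 0 of 28 cells, allows up to 10.7%. The P0 dermal-like share thus lay within what macrophage-like cells allowed, and the E16.5 share above that of macrophage-like cells. The 34 erythroid-like cells at E16.5, a class not known to make Kit ligand, had 95.7 CPM (72.9 to 123). Kitl was seen in 26.5% of them at 3500 UMIs (12.9 to 44.4), an interval that holds the dermal-like share, at a median depth of 16892 UMIs. These erythroid-like cells also had 8 dermal markers raised, with a dermal score of 2.47 beside an erythroid score of 3.93, so they are not a clean comparison. The 45 melanocyte-like cells of that library had 8.45 CPM.

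Vessel cells carried Kitl at every stage. Endothelial-like cells had 110 CPM at E13.5 (91.0 to 132), 174 CPM at E16.5 (164 to 186) and 94.9 CPM at P0 (82.3 to 109). They were the highest named class at E13.5 and P0, their interval at P0 overlapping that of pericyte-like cells at 77.0 CPM (64.5 to 91.4), and at E16.5 their interval overlapped that of dermal-like cells. The log2 difference was 0.62 (0.37 to 0.87) from E13.5 to E16.5 and -0.81 (-1.01 to -0.61) from E16.5 to P0. The endothelial-like sub-clusters with the highest Kitl were 15 cells at E16.5 led by the arterial connexin genes Gja4 and Gja5, at 248 CPM, and 17 cells at P0 with Gja4 among their leading genes, at 190 CPM. Lymphatic endothelial-like cells had 6.74, 9.51 and 4.30 CPM, below the interval of the endothelial-like class in each library. Schwann-like cells had 40.5, 73.7 and 15.9 CPM, and adipocyte-like cells, found at P0, had 53.7 CPM.

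**Figure D3:**
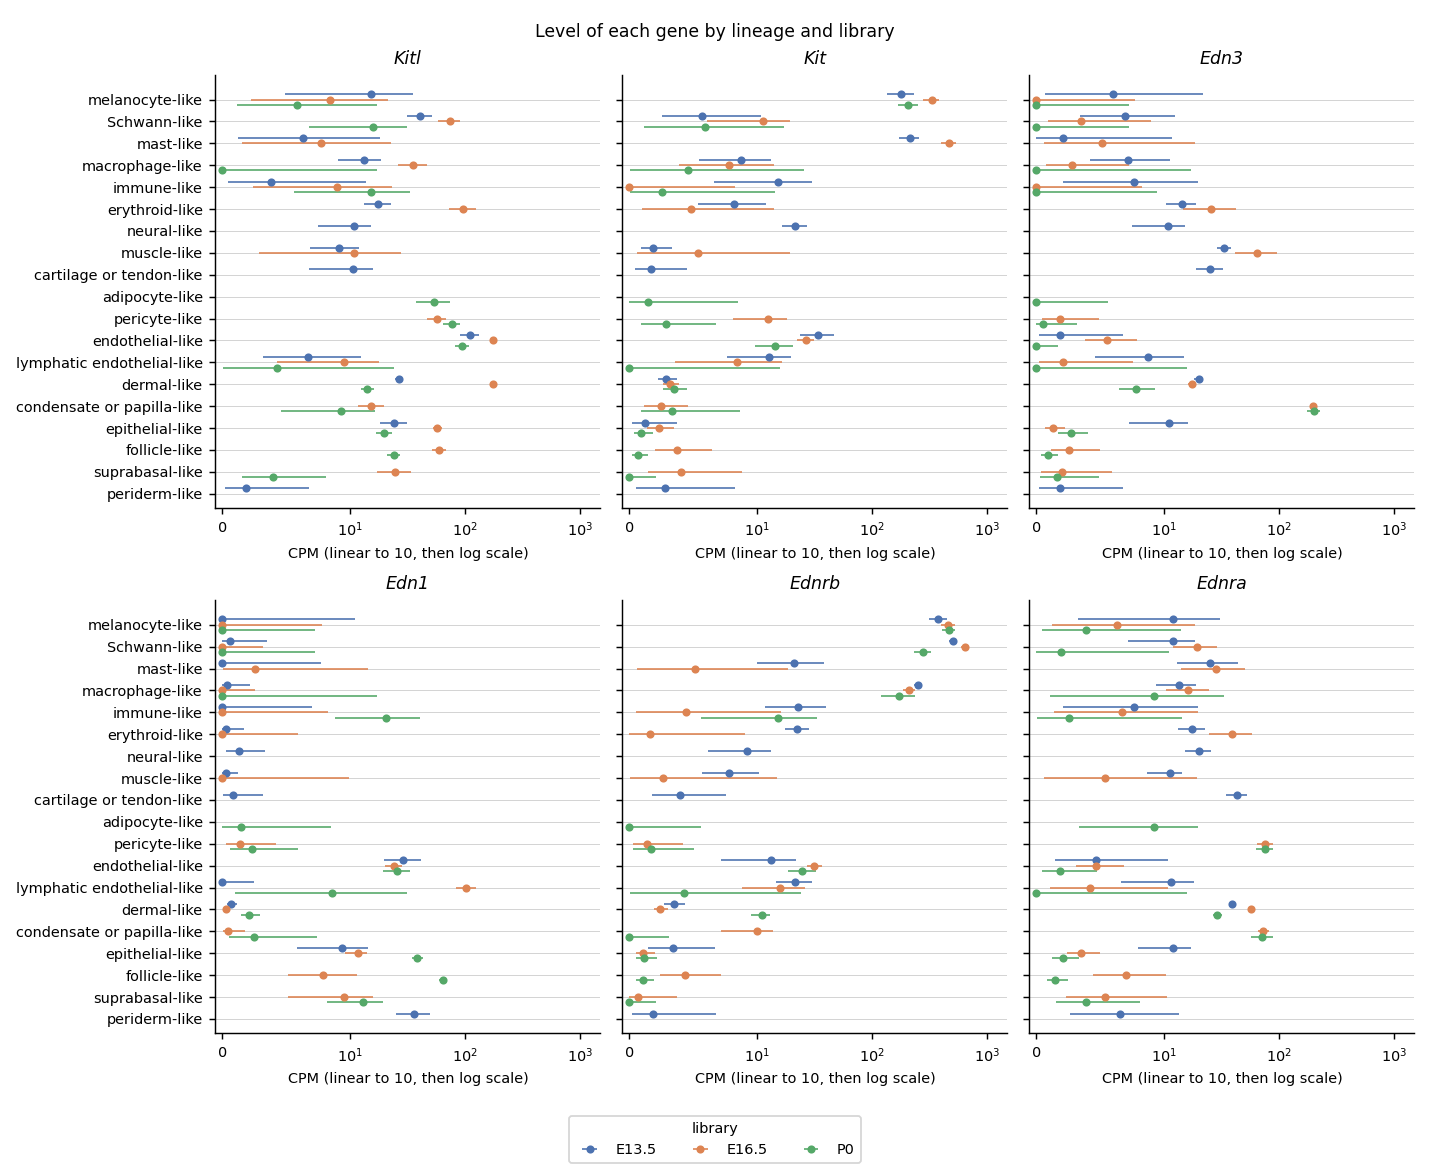
Level of each of the 6 genes in CPM in every named class of cells, by library, with 95% Poisson intervals, on an axis that is linear to 10 CPM and logarithmic above. Kit is highest in mast-like and melanocyte-like cells, Ednrb in Schwann-like, melanocyte-like and macrophage-like cells, and Edn3 at E16.5 and P0 in condensate or papilla-like cells, at 199 and 201 CPM.

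Kitl and Edn3 divided the E16.5 dermis. The dermal condensate is the cluster of fibroblasts under a forming hair follicle, and it becomes the dermal papilla inside the follicle bulb. In the E16.5 library 421 cells carried its markers, and in the P0 library 171, with 9 and 10 of 10 markers higher. They had Edn3 at 199 CPM (185 to 213) and 201 CPM (176 to 228), from 789 and 237 UMIs, against 17.7 and 7.84 CPM in the other dermal-like cells. The ratios were 11.2 and 25.6, and the log2 differences after adding 10 CPM were 2.91 (2.79 to 3.04) and 3.56 (3.35 to 3.77). Between the 2 libraries Edn3 in these cells differed by 0.01 (-0.19 to 0.21). With the median cluster as the naming reference in place of the lower quartile, the P0 difference was 0.34 (-0.45 to 1.13), so the P0 value rested on how papilla cells were named, whereas at E16.5 the difference stayed between 2.79 and 3.42 under all alternatives run. The 3 E16.5 clusters with a marker of another class among their leading genes, 694 cells, belong to the other dermal-like cells here. Without them, an alternative chosen after seeing the data, the E16.5 differences were 2.95 for Edn3, -2.95 for Kitl, 0.39 for Ednra and 0.67 for Ednrb.

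Kitl went the other way at E16.5. It was at 15.4 CPM in condensate or papilla-like cells (11.8 to 19.8) against 175 CPM in the remaining dermis, which gave -2.87 on the log2 scale (-3.09 to -2.64). At P0 the values were 9.31 CPM (4.65 to 16.7) and 14.2 CPM, and -0.33 on the log2 scale, with an interval of -0.75 to 0.10, could not be told from 0. Of the 4 members measured at 10 CPM or more, 1 and then 2 were past a log2 difference of 1 upward in the E16.5 and P0 libraries, where 3.3% and 7.87% of all genes were, and 1 was past it downward in each, where 2.88% and 4.73% were. Edn3 was the upward member in both libraries, joined at P0 by Ednra, and the downward members were Kitl at E16.5 and Ednrb at P0. Edn3 was seen in 40.9% and 37.4% of the condensate or papilla-like cells at 3500 UMIs, against 5.62% and 2.58% of other dermal-like cells and 1.30% and 0% of endothelial-like cells, the last being 0 of 192 and allowing up to 1.56%. Median depths before thinning were 8739 and 5706, 10630 and 6021, and 16459.5 and 9414.5 UMIs. Of the 20 listed pathway genes measured in each library, 4 and 5 were higher in these cells and 0 were lower. Adamts20, a protease whose loss gives white belts in mice, Pik3r1, a subunit of phosphoinositide 3-kinase, and Plcb1, a phospholipase C, were among them at both stages. The list's median was 0.18 and 0.40, against 0.07 and 0.24 over all genes.

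The E16.5 dermal-like sub-clusters ran from 25.9 to 302 CPM of Kitl and from 5.90 to 28.7 CPM of Edn3. The highest Kitl levels were in 366 cells led by Mgst1, Ccdc80 and Ptger3, at 302 CPM, and in 269 cells led by the mitotic genes Cenpa, Knstrn and Cenpf, at 287 CPM. The lowest was in 308 cells led by Kcnk2, Elmo1 and Stmn2, at 25.9 CPM, which also had the highest Edn3 of the dermal-like sub-clusters, at 28.7 CPM. The 3 condensate or papilla-like sub-clusters had 264, 142 and 121 CPM of Edn3 and at most 21.5 CPM of Kitl. At E13.5 the highest Kitl was in 234 cells led by Osr2, Gata6 and Klf4, at 72.6 CPM, and the 12 dermal-like sub-clusters had Edn3 between 7.71 and 31.6 CPM. At P0 the highest were 36.1 CPM in cells led by Mfap5, Clec3b and Igfbp6 and 34.4 CPM in cells led by Ly6a and Figf. Across all dermal sub-clusters of a library, the correlation of log2 levels of Kitl and Edn3 was -0.37, -0.80 and -0.39 over 12, 15 and 13 sub-clusters in stage order. Without the condensate or papilla-like ones it was -0.59 at E16.5 and -0.47 at P0. The points share a library and its cells' depth, so these values are a description.

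**Figure D4:**
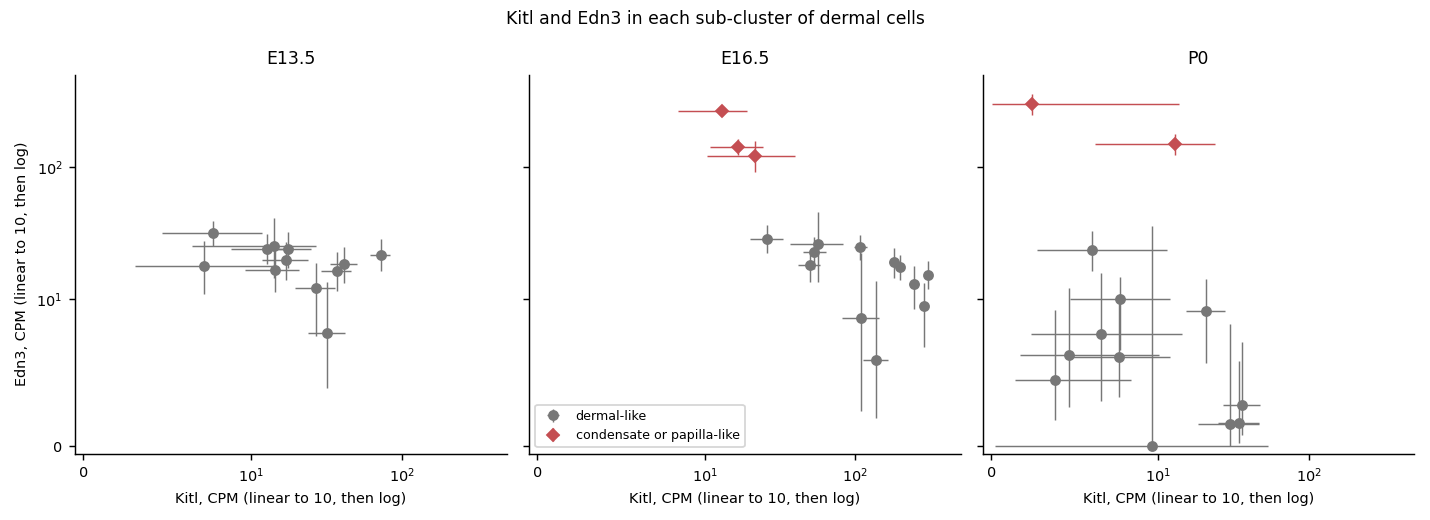
Kitl and Edn3 in CPM in each sub-cluster of dermal cells, 1 panel per library, with 95% Poisson intervals on both axes, each linear to 10 CPM and logarithmic above. At E16.5 the condensate or papilla-like sub-clusters (diamonds) have Edn3 at 121 to 264 CPM and Kitl at 21.5 CPM or less, and the other dermal-like sub-clusters (circles) reach 302 CPM of Kitl.

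Within single dermal-like cells the 2 ligands did not separate as they did between sub-clusters. At E16.5 and 3500 UMIs, 31.7% of dermal-like cells with Edn3 also had Kitl, and 37.5% of those without Edn3 had it. In condensate or papilla-like cells the shares were 5.23% and 3.61%. Edn3 was also counted outside the dermis. At E13.5, where no condensate-like cells were named, muscle-like cells had 33.3 CPM (28.8 to 38.3), cartilage or tendon-like cells 25.2 CPM (19.1 to 32.7) and dermal-like cells 20.1 CPM (18.3 to 22.0), each interval overlapping the next. Erythroid-like cells, which are not known to make endothelin-3, had 14.3 CPM (10.5 to 19.0) there and 26.0 CPM at E16.5 (14.8 to 42.2), which overlapped both the dermal-like level and that of the 30 muscle-like cells at E16.5, 64.6 CPM (41.4 to 96.1). The E16.5 erythroid-like cells also had dermal markers raised, as given above. From E13.5 to P0 Edn3 in dermal-like cells differed by -0.75 (-0.90 to -0.61). Epithelial classes had at most 2.74 CPM of Edn3 at E16.5 and P0, and the 11.1 CPM at E13.5 came mostly from a sub-cluster led by Twist2, a dermal marker, and Nrp1.

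In the epithelium, Kitl and Edn1 were the ligand genes measured. Kitl stood at 24.0 CPM in epithelial-like cells at E13.5 (18.1 to 31.1), 57.4 CPM at E16.5 (52.6 to 62.6) and 19.9 CPM at P0 (17.0 to 23.1), a log2 difference of 0.99 (0.70 to 1.28) and then of -1.18 (-1.36 to -0.995). Follicle-like cells, found at E16.5 and P0, had 60.0 and 24.1 CPM, differing from the other epithelial-like cells by 0.05 (-0.15 to 0.25) and 0.19 (-0.01 to 0.38), neither of which could be told from 0. Differentiated suprabasal-like cells had less, 24.5 CPM at E16.5 (17.2 to 33.9) and 3.96 CPM at P0 (1.59 to 8.16), and periderm-like cells at E13.5 had 1.89 CPM. At E13.5 the sub-cluster with the highest Kitl was led by Dkk4 and Kremen2, Wnt pathway genes, at 63.1 CPM, and the next was at 23.7 CPM.

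Edn1 was a keratinocyte and vessel transcript. In follicle-like cells it was at 7.90 CPM at E16.5 (5.20 to 11.5) and 64.6 CPM at P0 (59.7 to 69.9), a log2 difference of 2.06 (1.80 to 2.32), or 1.12 (0.80 to 1.43) with the median cluster as the naming reference. In other epithelial-like cells it was at 9.42, 11.8 and 38.5 CPM, with a difference of 1.16 (0.96 to 1.35) from E16.5 to P0. At P0 it was seen in 137 of 828 follicle-like and 78 of 576 epithelial-like cells at 3500 UMIs, against 0.533% of dermal-like cells, at median depths of 9041.5, 9509.5 and 6021 UMIs. The P0 follicle-like cells exceeded the other epithelial-like cells by 0.62 (0.46 to 0.78), but this turned to -0.88 (-1.08 to -0.68) with the median cluster as the naming reference. Of the members only Kitl and Edn1 reached 10 CPM in either class, and neither was past a log2 difference of 1 between them. Of all genes, 2.14% were past it upward and 0.432% downward at E16.5, and 1.26% and 2.4% at P0.

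The follicle-like class was not uniform for Edn1 at P0. It stood at 140.0 CPM in 150 cells led by Prss35 and Edn1, at 111 CPM in 132 cells led by Ung, Rasl11a and Mcm2, and at 79.8 CPM in 137 cells led by Ccnb1, Kpna2 and Plk1. The leading genes of the last 2 include Mcm2, which acts in DNA replication, and the mitotic genes Ccnb1 and Plk1. The 4 other sub-clusters were between 3.46 and 35.5 CPM, among them one led by the matrix signal gene Shh at 18.2 CPM and one led by the hair keratin genes Krt28 and Krt35 with Msx1 at 25.9 CPM. At E13.5, periderm-like cells, the outermost layer of embryonic skin, had 35.9 CPM (25.4 to 49.2). Endothelial-like cells had 29.1, 24.1 and 25.7 CPM with overlapping intervals, reaching 173 CPM in the 15 Gja4-led cells at E16.5 and 81.3 CPM in the 17 at P0. Lymphatic endothelial-like cells had 0 UMIs in 143 cells at E13.5, 97 UMIs or 102 CPM (83.1 to 125) in 43 cells at E16.5 and 2 UMIs in 12 cells at P0. The E16.5 level was at least 50.7-fold higher than at E13.5, taking 3 counts over the class as the limit.

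**Figure D5:**
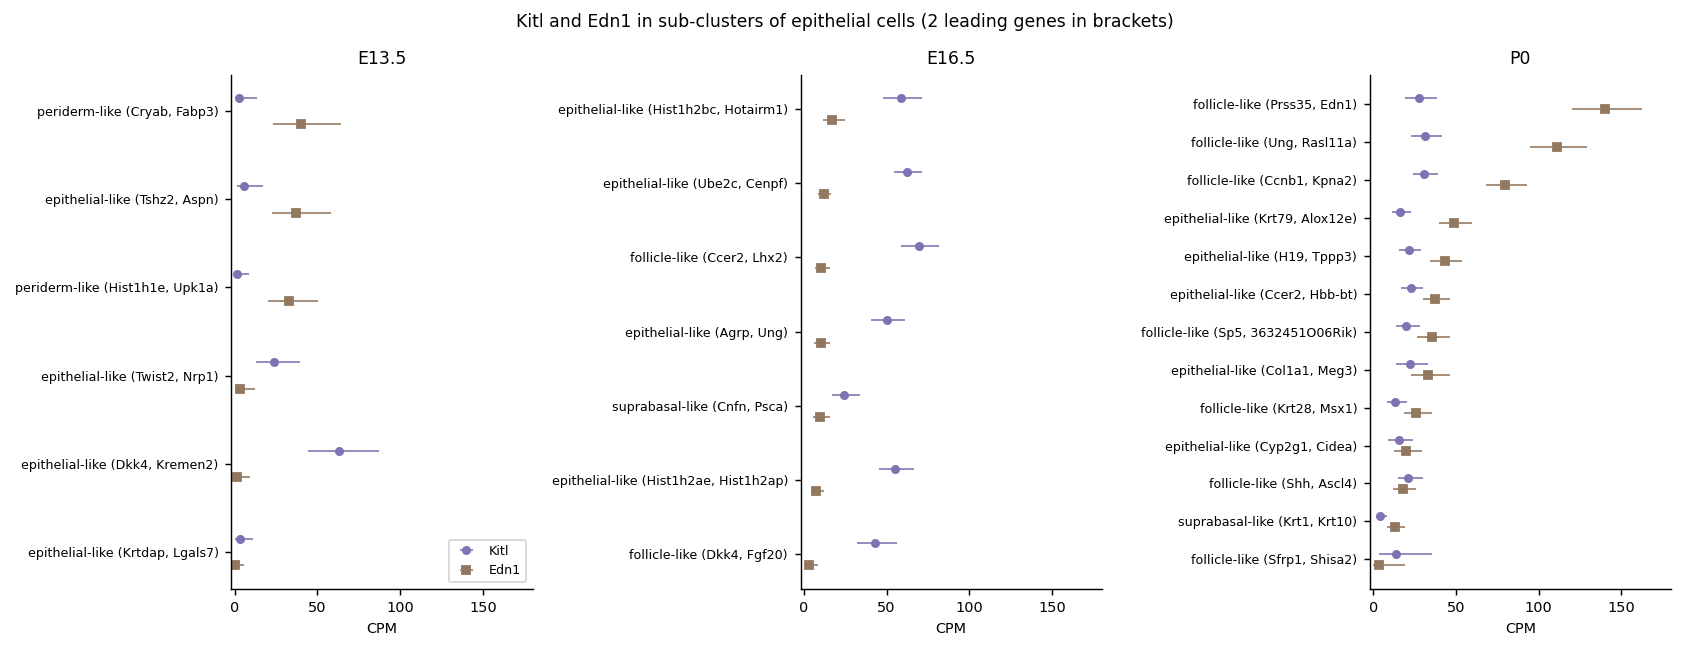
Kitl (circles) and Edn1 (squares) in CPM in each sub-cluster of the epithelial classes, 1 panel per library, ordered by Edn1, with 95% Poisson intervals and 2 leading genes in brackets. At P0 the Edn1 level runs from 3.46 CPM to 140.0 CPM over the follicle-like sub-clusters.

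Ednra, the receptor of endothelin-1, was highest in mesenchymal classes. Pericyte-like cells, the contractile cells around small vessels, had 75.8 CPM at E16.5 (64.4 to 88.6) and 75.3 CPM at P0 (62.9 to 89.5). Condensate or papilla-like cells were level with them, at 73.4 CPM (65.2 to 82.3) and 71.1 CPM (56.7 to 88.1). Dermal-like cells had 39.3, 57.6 and 29.1 CPM, and cartilage or tendon-like cells at E13.5 had 42.9 CPM, an interval that overlapped the dermal-like one. The dermal-like class was not uniform, its sub-clusters running from 19.2 to 69.8, 6.55 to 113 and 7.48 to 53.1 CPM in stage order. At E16.5 its highest sub-cluster thus stood above the levels of the pericyte-like and condensate or papilla-like classes. The condensate or papilla-like cells exceeded the dermal-like cells by 0.30 (0.15 to 0.46) at E16.5 and 1.05 (0.77 to 1.34) at P0. Epithelial, endothelial and melanocyte-like classes were at most 12.1 CPM in any library. Other classes lay between, with mast-like cells at 25.2 CPM (13.04 to 44.1) and neural-like cells at 20.2 CPM (15.4 to 25.9) at E13.5, and 34 erythroid-like and 46 mast-like cells at 38.9 CPM (24.95 to 57.9) and 28.4 CPM (14.2 to 50.8) at E16.5, the erythroid-like interval overlapping the dermal-like one. At 3500 UMIs, Ednra was seen in 23.3% and 19.8% of pericyte-like cells, against 1.20% and 0.347% of epithelial-like cells, at median depths of 9721.5 and 6156.5 against 13835 and 9509.5 UMIs. At E16.5 the shares of 14.7% (4.95 to 31.1) in erythroid-like cells and 13.04% (4.94 to 26.3) in mast-like cells had intervals that overlapped the pericyte-like one (17.4 to 30.2). Those erythroid-like cells carried raised dermal markers, as given above. Across dermal sub-clusters the log2 level of Ednra had a correlation with Kitl of -0.69, -0.51 and -0.81, the same points as above.

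Over the 31 class and stage groups of at least 50 cells, the genes whose log2 levels were most like each member's were found among 15471 genes. Edn3 was closest to Col23a1, Fgf10 and Cacna1g, with Pearson correlations of 0.94, 0.94 and 0.92. Ednra was closest to Cd248, Ror2 and Tbx18 (0.93, 0.90 and 0.89), and Ednrb to Ptprj, Dnajc19 and Snx1 (0.92, 0.86 and 0.85). Edn1 was closest to Tdrp, F11r and Cyb561 (0.88, 0.84 and 0.82), and Kit to Bfsp2, Car8 and D330045A20Rik (0.85, 0.84 and 0.81). Kitl was closest to Adamts9, Lamc1 and Heg1 (0.70, 0.70 and 0.68). Among the 6 members themselves the highest value was 0.60, between Edn3 and Ednra, and Kit and Ednrb had 0.39. The limit of 50 cells left out the melanocyte-like groups at E13.5 and E16.5 and the mast-like group at E16.5, of 35, 45 and 46 cells, so of the 5 groups where Kit was high only mast-like cells at E13.5 and melanocyte-like cells at P0 entered its correlations. Of groups high for Ednrb, the limit left out the same melanocyte-like groups and the 28 macrophage-like cells at P0, at 171 CPM. For Edn1 it left out the 43 lymphatic endothelial-like cells at E16.5, at 102 CPM. The groups share 3 libraries, so these values are a description.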

How the data were processed

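The authors deposited 1 table of natural log values, ln(1 + UMIs per 10000 UMIs of the cell), made with Cell Ranger 2.2.0 on mm10 per the labels and with a filter of at least 1750 genes per cell. Every value above 0 returned a whole UMI count within 0.001 of that count, and these UMIs were summed. The series text gives 15086 cells, and all 16235 barcodes in the table passed that filter. Cells of each library were clustered with scanpy 1.11.5 (2000 variable genes without the members and pathway list, 30 components, Leiden resolution 1), and clusters were named by at least 3 markers above the 25th percentile of clusters by a log2 difference of 1. Further naming thresholds were set after clusters were seen. The members and lists were chosen with earlier results of these data known. Named were all 6 members, listed pathway genes past 1 in at least 2 libraries, and each member's 3 most similar genes, with Src, Lyn, Adamts20, Pik3r1 and Plcb1 added after their values were seen. Sub-clusters are described by up to 3 leading genes, and a leading gene of some is not reported here. Doublets were kept in the reported values, and Scrublet called 84 cells at E16.5, 106 at P0 and 0 at E13.5, where it had not worked. Intervals were exact Poisson or binomial, computed with scipy 1.17.1. Positions are from GENCODE release 21 and promoter windows from RefSeq, with all 6 members matched. The log2 differences and their intervals were tested on simulated summed counts drawn with counting error only. Spread between cells was not part of that test.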

Additional observations from a re-analysis of the deposited data

Results flagged for a closer look

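Ednrb in the follicle mesenchyme differed in direction between the 2 libraries that held it. At E16.5 it was the higher of the pair in condensate or papilla-like cells, by 0.69 on the log2 scale (0.46 to 0.92), at 10.1 CPM from 40 UMIs against 2.46 CPM in the remaining dermis. At P0 the same comparison gave -1.08 (-1.35 to -0.82), with 0 UMIs against 11.2 CPM, which is at least 4.39-fold lower when 3 counts over the class are taken as the limit. At E16.5, 209 cells led by Bmp3, Sox18 and Sox2 had 17.6 CPM, and the 2 other sub-clusters had 1.29 and 8.61 CPM. At P0 the dermal-like sub-clusters ran from 2.08 CPM to 86.7 CPM, the highest in 21 cells led by Isg15, Bst2 and Mylk and the next, at 37.3 CPM, in 192 cells led by Sost, Tagln and Fgl2. The P0 class rested on how papilla cells were named, as its Edn3 difference of 0.34 under the median naming reference showed. Ednrb at P0 was not recomputed under any other naming, so its direction there holds for the reported class only. The difference between the libraries was not tested, since each stage was 1 library.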

How the results depend on the processing

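No paired analysis was possible because each stage was 1 library and no result came from a test. Of 232 recomputed values, 148 moved by less than their counting interval, 83 moved further and 1, P0 follicle Edn1, turned direction although its reported interval left out 0. The sign also changed for Ednrb in melanocyte-like cells, where the reported intervals held 0, under 5 alternatives for P0 against E16.5 and 1 for E16.5 against E13.5. Across alternatives the log2 difference of melanocyte-like cells from all other cells stayed at 2.56 or more for both receptors. With 1 CPM added in place of 10, Kit gave 4.27, 5.08 and 5.33 in stage order and Ednrb 3.25, 4.26 and 5.16, Edn3 in condensate or papilla-like cells 3.42 and 4.51, Kitl there at E16.5 -3.43, and Edn1 in follicle-like cells between E16.5 and P0 2.88. With melanocyte cells taken one by one from at least 3 markers, Kit gave 2.77, 3.796 and 2.79, Ednrb 2.60, 3.47 and 2.97, and the P0 against E16.5 differences were -1.53 for Kit and -1.17 for Ednrb. With mixed sub-clusters kept, an alternative chosen after seeing the data, Kit gave 2.73, 3.45 and 3.10, Ednrb 2.56 at E13.5 and 3.34 at P0, and -0.96 for Ednrb at P0 against E16.5. At resolution 2, Kit and Ednrb at E13.5 gave 4.05 and 3.87, their E16.5 against E13.5 differences 0.14 and -0.60, and Edn3 at P0 2.51, and the 4 results on melanocyte-like cells at P0 had no value. At resolution 0.5, Ednrb at P0 gave 4.18, its difference from E16.5 -0.27, and Edn1 in P0 follicle-like cells 0.38. With 1000 variable genes, Kit at E13.5 gave 2.99, Edn3 2.79 at E16.5 and 2.45 at P0, and P0 follicle Edn1 0.40. With members allowed among the variable genes, Kit and Ednrb at E13.5 gave 2.93 and 2.73, Kit between E13.5 and E16.5 1.29, Edn3 and Kitl in P0 papilla-like cells 2.35 and -0.79, and P0 follicle Edn1 0.40. With at least 2500 genes per cell, Edn3 and Kitl in P0 papilla-like cells gave 3.03 and -0.91, endothelial Kitl between E13.5 and E16.5 0.35, and the Kitl of the whole E16.5 and P0 libraries 125 and 28.8 CPM. With cells weighted equally these were 3.34 for Edn3 at P0, 0.998 for endothelial Kitl, 116 CPM and 22.2 CPM. With Scrublet doublets left out, not run at E13.5, Ednrb at E16.5 gave 3.54 and Edn3 at P0 3.21. With at least 8 condensate markers, also chosen after seeing the data, Edn3 at E16.5 gave 3.31. With the median cluster as the naming reference, P0 follicle Edn1 turned to -0.88, P0 Edn3 was 0.34 and follicle Edn1 between E16.5 and P0 was 1.12. The cause of these movements was not tested. With 1 library per stage, no spread between animals can be given, and classes under 50 cells rest on few UMIs.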
